A study of Mus musculus with 2 samples.

Results

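The insulin-like growth factor genes measured here were 9 genes of the 27998 in the count table, chosen by symbol: the ligand Igf1, the receptors Igf1r and Igf2r, and the binding proteins Igfbp2, Igfbp3, Igfbp4, Igfbp5, Igfbp6 and Igfbp7. They were read in cells of mouse carotid artery after wire injury, in which a wire drawn along the vessel removes its endothelium and a neointima then grows under the flow surface (intimal hyperplasia). One library came from arteries taken 28 days after injury (the 4-week library) and 1 from arteries taken 14 days after injury (the 2-week library). Both groups were injured male mice of the C57BL/6J strain, aged 8 weeks, and the design states n = 18 per time. Each library stands for the animals of 1 time, a cell cannot be traced to its animal, and uninjured arteries were not analysed here. The labels also speak of aortic grafts in the protocol for making cell suspensions; the tissue is taken as carotid artery, as the source labels give it. A time point is a single library, so differences between the times have no replicate check and were not tested. The 95% intervals given with values cover only the error of counting.

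IGF1 is a secreted growth factor that drives growth and survival of mesenchymal cells, and it acts through IGF1R, a receptor tyrosine kinase of the insulin receptor family. IGF2R has no kinase and is known for carrying IGF2 and mannose 6-phosphate tagged enzymes to lysosomes. The binding proteins hold IGFs in the extracellular fluid and matrix and can hold them back from the receptor or release them when proteases cut the binding protein. In the artery wall, IGF1 is known as a mitogen and survival factor for smooth muscle cells, and macrophages are a known source of it in healing tissue.

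The 4-week library held 8565 barcodes and the 2-week library 5864, and 8 barcodes occurred in both. After filtering, 7460 and 5172 cells were kept, with medians of 8728 and 11799 UMIs (unique molecular identifiers, counted transcripts) per cell, in 27 clusters. Clusters were named from marker lists, and each name ends in "-like". Fibroblast-like cells numbered 2899 at 4 weeks (38.9% of kept cells) and 1017 at 2 weeks (19.7%). Macrophage-like cells numbered 339 (4.54%) and 1208 (23.4%), smooth muscle cell-like cells 79 and 206, and dendritic cell-like cells 138 and 83. Clusters 13, 15, 16, 22 and 24 stayed unnamed, and of these 16 and 22 had 50 or more cells in each library. Cluster 16 (112 and 129 cells) met 8 of 10 fibroblast markers and 75% of the pericyte list. That gap was under the 20 percentage points that a name needed. It had Fmod, Comp, Acan and Mgp among its top genes. Cluster 22 (51 and 65 cells) met all 10 endothelial and all 7 lymphatic endothelial markers. Both libraries also held cells that are not of the artery wall, with 831 and 1643 thymocyte-like cells and, at 2 weeks, 54 parathyroid cell-like cells. B cell-like cells numbered 1173 at 4 weeks (15.7%) and 39 at 2 weeks (0.754%), and cluster 15, which met all 10 B cell markers, 278 and 4. The part of this difference in makeup in the ratios between the libraries was not tested. Levels are given in CPM, a gene's UMIs per 1000000 UMIs of its class, and a gene is compared across cells, not with another gene.

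All 9 genes are protein coding and lie on 7 chromosomes of mm10. Igf1 lies at chr10:87858265-87937042, Igf1r at chr7:67952827-68233668 and Igf2r at chr17:12682406-12769664. Igfbp2 (chr1:72824503-72852474, plus strand) and Igfbp5 (chr1:72857932-72874884, minus strand) are neighbours that point at each other, with 5457 bases between them. Igfbp3 lies at chr11:7206086-7213923, Igfbp4 at chr11:99041244-99054392, Igfbp6 at chr15:102144362-102149511 and Igfbp7 at chr5:77349240-77408041. Igf1os overlaps Igf1, Airn overlaps Igf2r, and Gm34648 and the end of Polr2b overlap Igfbp7, all on the opposite strand. Whether strand was used in counting is not given in the sources used here, so UMIs of these pairs may not be fully told apart. RefSeq promoter windows (GRCm38.p6, 250 bases before to 50 after an annotated start) were found for all 9 genes. Those of Igf1, Igfbp4 and Igf1r are shown because the first had UMIs above the free-RNA level in few classes, the second in stromal cells and some leukocytes, and the third in nearly every class. They run 5′ to 3′ on the plus strand at chr10:87860861-87861160, chr11:99040994-99041293 and chr7:67952007-67952306, and capitals mark exact matches, on either strand, to the TATA box (TATAAA), to the GC box (GGGCGG) and to the CCAAT box (CCAAT).
Igf1: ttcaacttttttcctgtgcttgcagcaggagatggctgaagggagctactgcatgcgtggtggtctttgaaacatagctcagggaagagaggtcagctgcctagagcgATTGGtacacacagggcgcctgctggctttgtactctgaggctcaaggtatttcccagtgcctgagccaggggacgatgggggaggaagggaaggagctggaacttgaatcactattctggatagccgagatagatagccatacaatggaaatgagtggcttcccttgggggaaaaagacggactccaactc
Igfbp4: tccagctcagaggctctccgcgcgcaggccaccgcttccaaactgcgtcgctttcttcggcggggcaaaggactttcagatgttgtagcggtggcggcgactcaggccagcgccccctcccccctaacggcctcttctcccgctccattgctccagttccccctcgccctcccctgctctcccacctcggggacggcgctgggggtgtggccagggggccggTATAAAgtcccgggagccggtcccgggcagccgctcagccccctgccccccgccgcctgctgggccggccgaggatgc
Igf1r: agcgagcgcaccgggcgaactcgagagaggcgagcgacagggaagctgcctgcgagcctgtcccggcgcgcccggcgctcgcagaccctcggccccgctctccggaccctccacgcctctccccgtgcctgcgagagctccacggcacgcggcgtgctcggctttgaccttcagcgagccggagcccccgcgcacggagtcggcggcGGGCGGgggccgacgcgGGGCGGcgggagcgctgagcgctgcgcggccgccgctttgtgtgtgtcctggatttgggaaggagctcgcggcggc
The Igf1 window held 6 CG pairs and 1 CCAAT match, read as ATTGG. The Igfbp4 window held 27 CG pairs and a TATAAA that begins 28 bases before the start. The Igf1r window held 48 CG pairs, more than 98.8% of 32851 such windows, and 2 GGGCGG matches. Over those windows the median was 7 CG pairs, and TATAAA occurred in 13.6%, GGGCGG in 35.7% and CCAAT in 37.4%. These matches describe the letters and are not shown to be bound. The RefSeq starts used for Igf1 and Igf1r differ from the gene starts in GENCODE, so other starts are not covered.

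**Figure D1:**
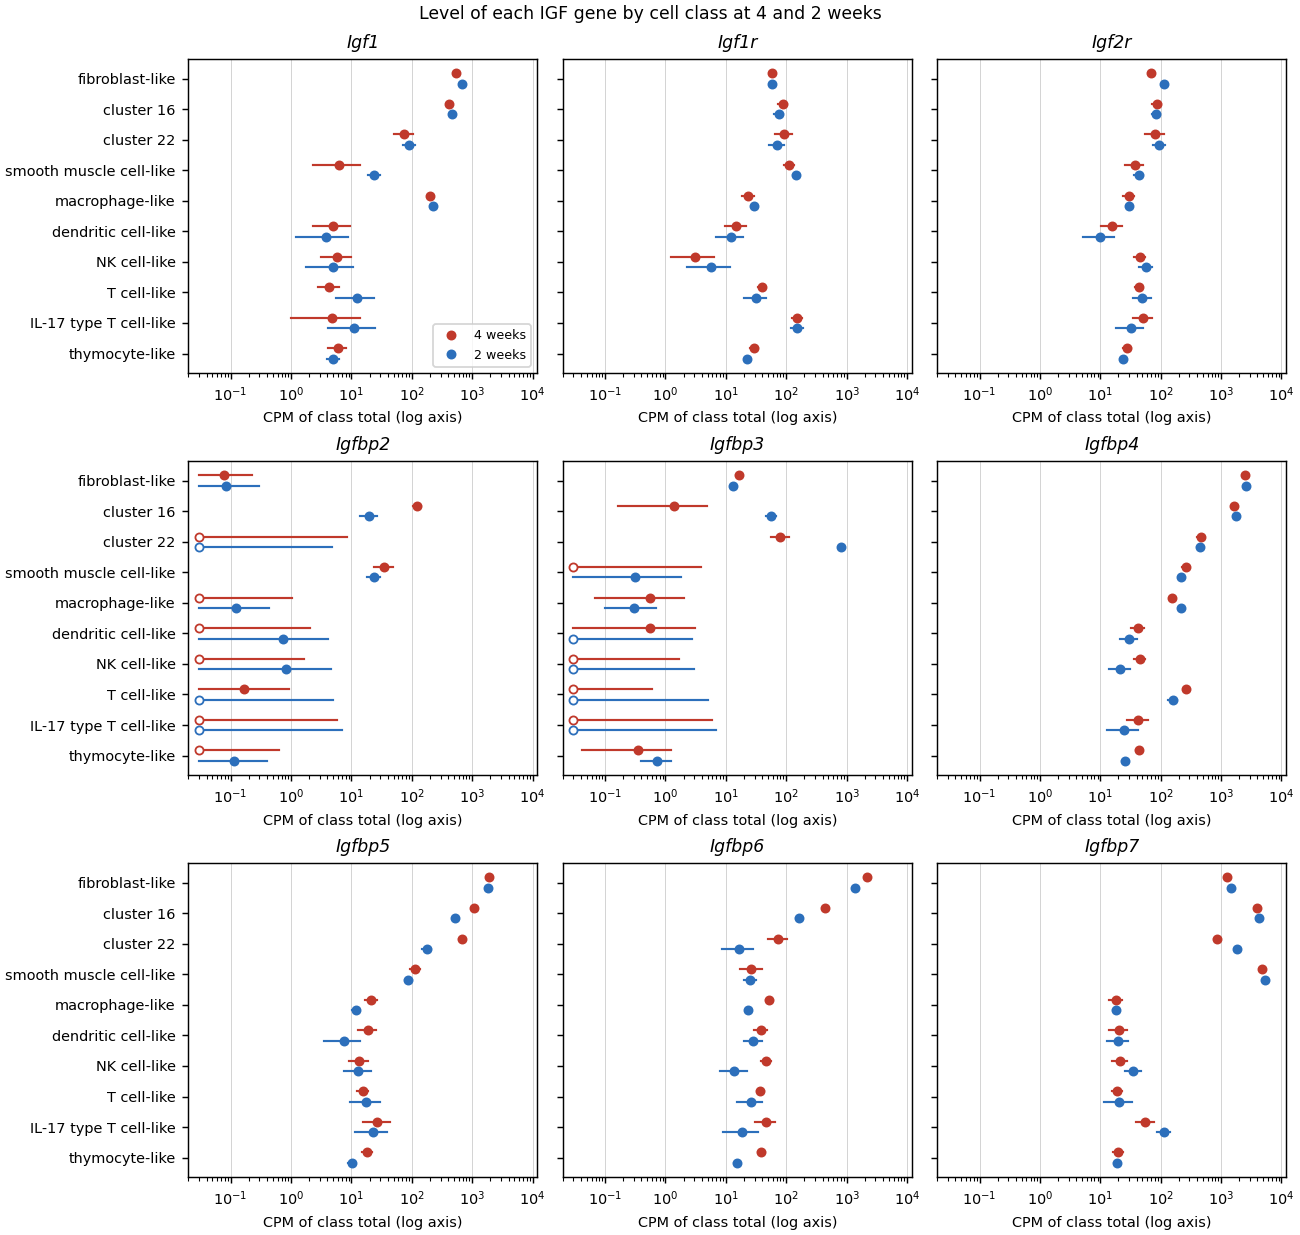
Level of each gene, in CPM of the class total on a log axis, in 10 classes and clusters that had 50 or more cells at both times; red points are 4 weeks, blue points 2 weeks, lines are exact Poisson 95% intervals, and open points at the left edge mark 0 UMIs. Igf1 stood at 534 and 691 CPM in fibroblast-like cells and at 203 and 222 CPM in macrophage-like cells, while Igfbp7 was highest in smooth muscle cell-like cells at both times.

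Igf1, the ligand, came mainly from fibroblast-like cells and, at a lower level, from macrophage-like cells. Fibroblast-like cells had 534 CPM at 4 weeks (526 to 541, from 20473 UMIs) and 691 CPM at 2 weeks (681 to 702, from 16689 UMIs). Macrophage-like cells had 203 CPM (188 to 218) and 222 CPM (215 to 230). Between these lay cluster 16, with 414 and 465 CPM, and below them cluster 22, with 73.4 and 91.4 CPM. The order fibroblast-like, cluster 16, macrophage-like, cluster 22 was the same in both libraries, with no overlap of neighbouring intervals. The remaining 6 classes had from 4.27 to 6.34 CPM at 4 weeks and from 3.74 to 23.9 CPM at 2 weeks, and neighbours in that order overlapped. Of the Igf1 UMIs in kept cells, fibroblast-like cells held 91.9% at 4 weeks and 77.2% at 2 weeks, and macrophage-like cells 3.25% and 17.0%. The library-wide level was nearly equal, at 303 and 301 CPM, with different shares of cells behind it.

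Free RNA gives low counts of Igf1 in cells that do not make it, so the gene was set beside the summed UMIs of the 10 fibroblast markers in the same class. Per 1000 UMIs of that list, thymocyte-like cells had 11.0 Igf1 UMIs at 4 weeks and 12.8 at 2 weeks, close to the 11.8 and 11.1 in fibroblast-like cells. Macrophage-like cells had 350 and 483. All 10 fibroblast markers had UMIs in macrophage-like cells, with a sum of 580 and 461 CPM, against 538 and 389 CPM in thymocyte-like cells. The Igf1 counts of macrophage-like cells were thus far above the ratio that fibroblast RNA carries, and those of thymocyte-like, dendritic cell-like and NK cell-like cells (11.2 and 9.69, and 11.7 and 11.3) were not. Dendritic cell-like cells, the other myeloid class of that size, had 9 and 5 Igf1 UMIs in all. After each cell was thinned to 2700 UMIs, Igf1 was seen in 60.9% (4 weeks) and 63.6% (2 weeks) of fibroblast-like cells, in 30.4% and 38.8% of macrophage-like cells, and in 2.04% and 2.30% of thymocyte-like cells. Without thinning these shares were 86.1 and 89.7%, 47.8 and 60.2%, and 4.09 and 5.23%.

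**Figure D2:**
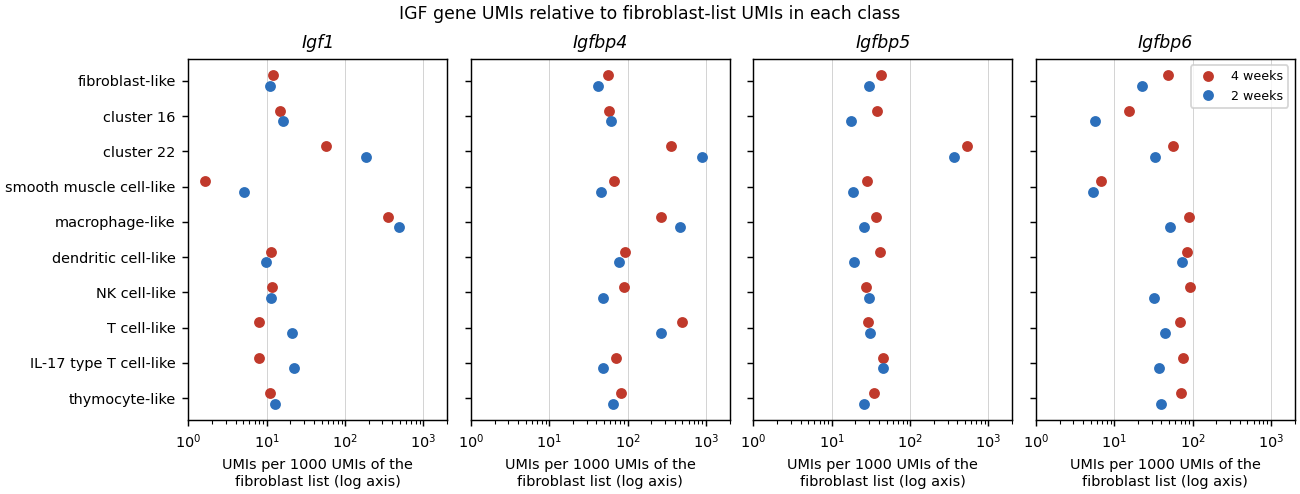
UMIs of 4 genes per 1000 UMIs of the 10 fibroblast markers in the same class, on a log axis; red points are 4 weeks and blue points 2 weeks. Igf1 in macrophage-like cells (350 and 483) stood apart from the 11.0 and 12.8 of thymocyte-like cells, whereas Igfbp6 in macrophage-like cells (91.0 and 51.4) was less than 1.5 times the 71.5 and 39.2 of thymocyte-like cells.

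Within the macrophage-like class the 2 clusters moved in opposite directions for Igf1. Cluster 4, led by Folr2, Ccl8 and Cd163, genes of resident-type macrophages, had 266 CPM at 4 weeks and 361 CPM at 2 weeks (log2 ratio of 4 over 2 weeks -0.44, -0.62 to -0.27). Cluster 5, led by Arg1, Mmp12 and Saa3, genes of macrophages in inflamed or healing tissue, had 173 and 91.5 CPM (0.92, 0.74 to 1.09). Few cells carried the gene in cluster 5, where the 10% of cells with the most held 69.4 and 77.9% of its Igf1 UMIs and 34.9 and 29.2% of cells had any. In cluster 4 these shares were 38.0 and 30.9%, and 68.5 and 86.1%. Cluster 4 was therefore above cluster 5 in both libraries, by a smaller margin at 4 weeks. Cluster 4 made up 38.3% of macrophage-like cells at 4 weeks and 54.4% at 2 weeks, so the level of the whole class, with a log2 ratio of -0.13 (-0.25 to -0.02), joins clusters that differ in level and in direction. Its sign turned in 2 of 12 alternative processings. Clusters were drawn from the same cells, so differences between them are descriptions. With the clusters held at their 2-week weights, the class ratio was -0.03. Set beside the fibroblast list, cluster 4 had 451 and 707 Igf1 UMIs per 1000 and cluster 5 had 301 and 222, all above the level in thymocyte-like cells.

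Among the 4 fibroblast-like clusters, Igf1 was lowest in cluster 0 in both libraries. Cluster 0, led by Pla1a and Pi16 among others, had 307 CPM at 4 weeks and 247 CPM at 2 weeks. Cluster 3, led by Cilp and Thbs4, had 684 and 681 CPM. Cluster 6, led by Cthrc1 and Ptx3, had 626 and 797 CPM, and cluster 7, led by Apod, Cxcl13 and Fgf10, had 750 and 696 CPM. The makeup of the class differed between the libraries: cluster 0 held 40.7% of the class at 4 weeks and 19.9% at 2 weeks, cluster 3 held 36.4 and 14.0%, and cluster 6 held 4.24 and 55.2%. The class log2 ratio of Igf1 was -0.37 (-0.40 to -0.34). Cluster by cluster it was 0.31, 0.01, -0.35 and 0.11 for clusters 0, 3, 6 and 7, and at the 2-week cluster weights it was -0.23. Its sign turned in 1 of 12 alternatives, the one in which every cluster weighs the same.

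**Figure D3:**
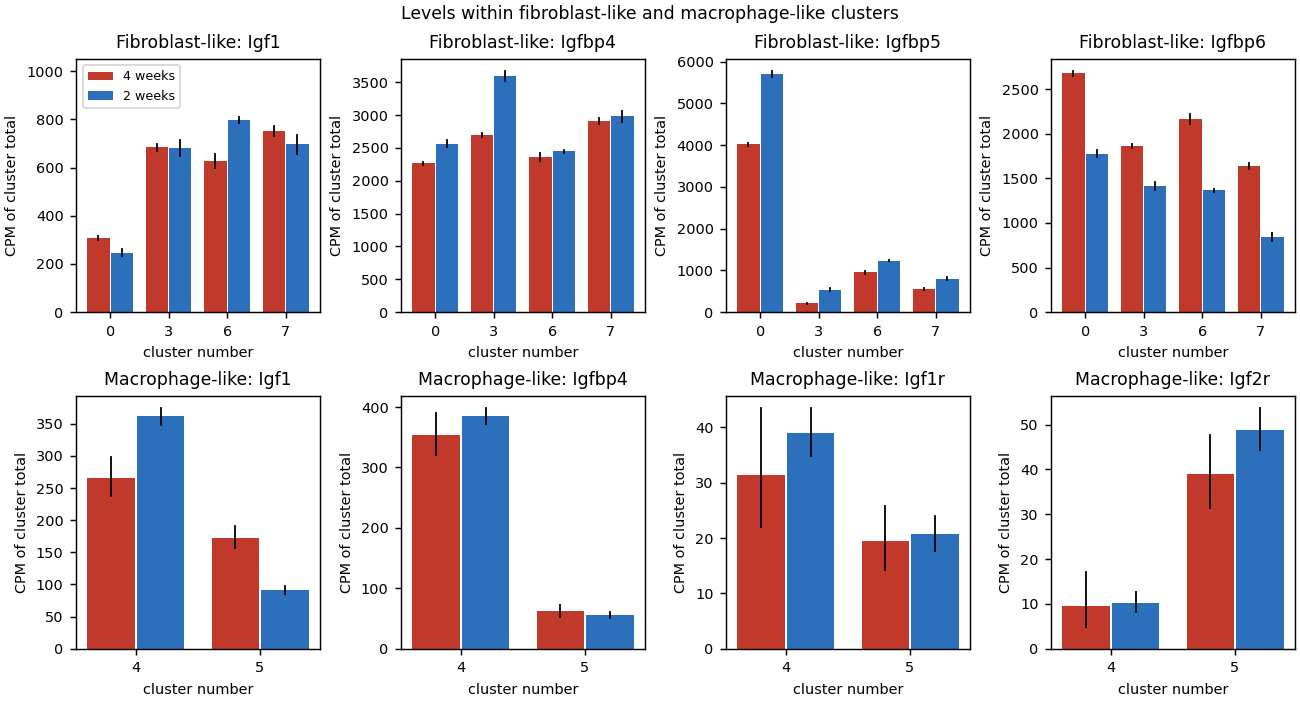
Levels in CPM of the cluster total in the 4 fibroblast-like clusters (upper row) and the 2 macrophage-like clusters (lower row); red bars are 4 weeks, blue bars 2 weeks, and black lines exact Poisson 95% intervals. Igf1 was lower at 4 weeks in macrophage-like cluster 4 (266 and 361 CPM) and higher in cluster 5 (173 and 91.5 CPM), and Igfbp5 was lower and Igfbp6 higher at 4 weeks in each fibroblast-like cluster.

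Smooth muscle cell-like cells had little Igf1, with 6 UMIs at 4 weeks (6.34 CPM, 2.33 to 13.8) and 75 UMIs at 2 weeks (23.9 CPM, 18.8 to 29.9). The log2 ratio was -1.91 (-3.41 to -0.73). The 10% of cells with the most held 100% and 92.0% of these UMIs, and after thinning 0 of 75 and 11 of 204 cells had one. Per 1000 UMIs of the fibroblast list they had 1.61 and 5.07 Igf1 UMIs, below the 11.8 and 11.1 of fibroblast-like cells. The fibroblast list summed to 3927 and 4716 CPM in these cells with all 10 markers present, and its part in the Igf1 counts was not tested.

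Igf1r, the receptor for IGF1, was spread over most classes and differed little between the libraries. Leaving aside classes under 50 cells in either library, IL-17 type T cell-like cells (99 and 82 cells) had the highest level, 152 CPM at 4 weeks (123 to 186) and 151 CPM at 2 weeks (120 to 188). Smooth muscle cell-like cells followed with 111 CPM (90.7 to 134) and 142 CPM (130 to 156), and these 2 classes overlapped at both times. Cluster 22 had 91.7 and 69.8 CPM, cluster 16 had 88.2 and 74.6 CPM, and fibroblast-like cells had 58.5 and 57.7 CPM. The myeloid classes were lower, with 23.3 and 29.6 CPM in macrophage-like cells and 14.6 and 12.0 CPM in dendritic cell-like cells, and NK cell-like cells had 7 UMIs in each library. Neutrophil-like cells, of which there were 30 at 4 weeks and 208 at 2 weeks, had 165 and 201 CPM. At 2700 UMIs per cell, Igf1r was seen in 26.7 and 30.9% of smooth muscle cell-like cells and in 15.5 and 14.0% of fibroblast-like cells. Both Igf1 and its receptor were thus present in fibroblast-like cells, while smooth muscle cell-like cells had more of the receptor and little of the ligand.

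Igf2r, the lysosomal sorting receptor, was lower at 4 weeks in fibroblast-like cells, with 68.5 CPM (65.9 to 71.1) at 4 weeks and 112 CPM (108 to 116) at 2 weeks. That log2 ratio was -0.71 (-0.79 to -0.63), short of the 2-fold threshold. Each of the 4 clusters also had a lower level at 4 weeks, with log2 ratios of -0.49, -0.24, -0.10 and -0.41 in clusters 0, 3, 6 and 7, and the interval of cluster 6 included 0 (-0.27 to 0.06). Cluster 6 had the highest level at both times, with 117 and 126 CPM, and at 2-week cluster weights the class ratio was -0.16. Cluster 16 had 86.1 and 83.6 CPM and cluster 22 had 80.3 and 95.2 CPM. Macrophage-like cells had 29.5 and 30.1 CPM, and cluster 5 held 89.5 and 83.5% of these UMIs, with 38.9 and 48.8 CPM against 9.60 and 10.2 CPM in cluster 4. Igf1 and Igf2r therefore had opposite orders in the 2 macrophage-like clusters.

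Igfbp4, a binding protein known mainly for inhibiting IGF action until the protease PAPP-A cuts it, was found in nearly every fibroblast-like cell. These cells had 2532 CPM at 4 weeks (2516 to 2548) and 2616 CPM at 2 weeks (2595 to 2636), and 97.1 and 96.7% of thinned cells had a UMI. Thymocyte-like cells had a UMI in 12.2 and 8.62%. Cluster 16 had 1618 and 1798 CPM, cluster 22 had 463 and 447 CPM and smooth muscle cell-like cells 260 and 215 CPM. The class ratio was close to 0 in fibroblast-like cells (-0.05), but cluster 3 was lower at 4 weeks, with 2703 CPM against 3592 CPM (-0.41, -0.44 to -0.38). In macrophage-like cells Igfbp4 had 156 CPM (143 to 170) and 216 CPM (209 to 223), and cluster 4 (354 and 385 CPM) was far above cluster 5 (62.1 and 56.0 CPM). The class ratio of -0.47 turned positive in 2 of 12 alternatives, while the ratios within the clusters were -0.12 and 0.15 with intervals that included 0. Per 1000 UMIs of the fibroblast list, macrophage-like cells had 269 and 468 Igfbp4 UMIs, against 56.2 and 42.0 in fibroblast-like cells and 81.9 and 65.1 in thymocyte-like cells. T cell-like cells also had Igfbp4 above that level, with 489 and 270 per 1000 and 260 CPM at 4 weeks (247 to 273) against 158 CPM at 2 weeks (131 to 190). This class was mostly clusters 9 and 12 at 4 weeks (484 and 344 cells) and mostly cluster 20 at 2 weeks (111 cells). Igf1 and Igfbp4 thus shared their higher macrophage-like cluster, the one led by Folr2 and Cd163.

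Igfbp5, a matrix-binding member, was concentrated in fibroblast-like cluster 0, where it is one of the 10 genes with the highest fold over other clusters, so its level there is part of what defines the cluster. Cluster 0 had 4019 CPM at 4 weeks (3988 to 4050) and 5693 CPM at 2 weeks (5618 to 5769). Cluster 3 had 211 and 535 CPM, cluster 6 had 957 and 1232 CPM, and cluster 7 had 553 and 804 CPM. All 4 clusters were thus lower at 4 weeks, with log2 ratios of -0.50, -1.34, -0.36 and -0.54. In cluster 3 the 10% of cells with the most held 86.4 and 69.6% of the Igfbp5 UMIs, and 1 cell held 5.24 and 16.3%. In cluster 7, 1 cell held 2.94 and 15.7%. The class as a whole gave the other sign, with 1917 and 1847 CPM and a log2 ratio of 0.05 (0.04 to 0.07) that turned negative in 3 of 12 alternatives. Cluster 0 held 87.5% of the class's Igfbp5 UMIs at 4 weeks and 49.1% at 2 weeks, and 40.7 and 19.9% of its cells. At the 2-week cluster weights the class ratio was -0.46.

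Outside the fibroblast-like class, Igfbp5 was higher at 4 weeks in the unnamed clusters 13, 16 and 22. Cluster 13 had 564 and 293 CPM, a log2 ratio of 0.95 (0.46 to 1.48). It met all 10 fibroblast markers, and its direction was opposite to that of the 4 fibroblast-like clusters. Cluster 16 had 1052 CPM (1000 to 1106) and 514 CPM (484 to 547), a log2 ratio of 1.03, beside a fibroblast list of 27806 and 28962 CPM and a pericyte list of 1125 and 1233 CPM with 1 of 8 markers at 0. The part of makeup in the ratios of Igfbp5 or other genes in cluster 16 was not tested. Cluster 22 had 690 CPM (614 to 773) and 178 CPM (150 to 210), a log2 ratio of 1.96 (1.66 to 2.26), and 1 cell held 21.6 and 35.7% of those UMIs. In cluster 22 the 7 lymphatic markers summed to 8499 and 5966 CPM with none at 0, the 10 endothelial markers to 7270 and 7577 CPM with none at 0, the 10 fibroblast markers to 1291 and 495 CPM with 0 and 1 at 0, and the 10 macrophage markers to 2307 and 548 CPM with 3 and 0 at 0. The part of this difference in makeup in the ratios of Igfbp5 or other genes in cluster 22 was not tested. Macrophage-like cells had 21.3 and 11.7 CPM of Igfbp5, which at 36.8 and 25.5 per 1000 UMIs of the fibroblast list lay at the level of thymocyte-like cells (34.3 and 25.9).

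Igfbp6, a binding protein known for its preference for IGF2, was higher at 4 weeks in each fibroblast-like cluster. The class had 2185 CPM at 4 weeks (2170 to 2200) and 1398 CPM at 2 weeks (1383 to 1413), a log2 ratio of 0.64 (0.63 to 0.66). Cluster 0 had 2675 and 1775 CPM, cluster 3 had 1858 and 1413 CPM, cluster 6 had 2164 and 1366 CPM, and cluster 7 had 1639 and 843 CPM. The log2 ratios of the 4 clusters were 0.59, 0.40, 0.66 and 0.96, and at the 2-week cluster weights the class ratio stayed at 0.64. Igfbp6 and Igfbp5 therefore differed in opposite directions within the same 4 clusters. Cluster 16 had 433 CPM (400 to 468) and 163 CPM (146 to 182), a log2 ratio of 1.41 (1.21 to 1.60). Fibroblast-like cells held 95.4 and 95.9% of the gene's UMIs.

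Low Igfbp6 counts in leukocytes moved in the same direction as those in fibroblast-like cells. Macrophage-like cells had 52.8 CPM at 4 weeks (45.5 to 60.9) and 23.7 CPM at 2 weeks (21.4 to 26.2), a log2 ratio of 1.16 (0.90 to 1.41), and 1 cell held 15.96% of the 4-week UMIs. Without the highest cell of each library the ratio was 0.95, and when the libraries were clustered separately it was 0.82, both under 2-fold. The separately clustered class is not the same set of cells. It lacked a cluster led by Arg1 at 2 weeks (421 cells) and one led by Mmp12 at 4 weeks (296 cells), which stayed unnamed. Thymocyte-like cells had 38.5 and 15.3 CPM (1.33), and NK cell-like cells had 46.0 and 13.9 CPM (1.73). Per 1000 UMIs of the fibroblast list these classes had 91.0 and 51.4, 71.5 and 39.2, and 92.5 and 32.1 Igfbp6 UMIs, against 48.5 and 22.4 in fibroblast-like cells, where the list itself summed to 45050 and 62298 CPM. After thinning, 11.0 and 5.42% of macrophage-like cells and 11.2 and 5.50% of thymocyte-like cells had a UMI, so the macrophage share did not exceed that of a class that should lack the gene. In CPM, macrophage-like cells lay above thymocyte-like cells at both times, and cluster 5 had 106 and 66.2 Igfbp6 UMIs per 1000 of the list, cluster 4 60.6 and 38.8. Whether macrophage-like cells made the gene was not tested.

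Igfbp7, a low-affinity member found in vascular basement membranes, was highest in smooth muscle cell-like cells. These cells had 4827 CPM at 4 weeks (4688 to 4969) and 5287 CPM at 2 weeks (5206 to 5368), and all thinned cells had a UMI in both libraries. Cluster 16 followed with 4002 and 4180 CPM, and fibroblast-like cells had 1257 and 1455 CPM. Cluster 22 had 853 CPM (769 to 944) and 1822 CPM (1729 to 1919), a log2 ratio of -1.09 (-1.26 to -0.93), beside its difference in makeup given above. Within fibroblast-like cells Igfbp7 was lower at 4 weeks in clusters 0, 3 and 7 (-0.28, -0.27 and -0.33) and higher in cluster 6 (0.38), and the class ratio of -0.21 became 0.21 at the 2-week cluster weights. Macrophage-like and dendritic cell-like cells had 18.2 and 18.3 CPM and 20.2 and 19.4 CPM, at the 19.8 and 19.0 CPM of thymocyte-like cells. Smooth muscle cell-like cells were fewer at 4 weeks, and their share of Igfbp7 UMIs was 7.39% there and 26.0% at 2 weeks, and the share of fibroblast-like cells was 78.0 and 55.2%.

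Igfbp3, the main carrier of IGFs in blood plasma, had its highest CPM in cluster 22 and was carried by few cells. Of its 675 UMIs in kept cells at 4 weeks and 1117 at 2 weeks, fibroblast-like cells held 622 and 323. Cluster 22 held 35 and 632, so the source of most UMIs differed between the libraries. Cluster 22 had 80.3 CPM at 4 weeks (55.9 to 112, from 35 UMIs) and 802 CPM at 2 weeks (741 to 867, from 632 UMIs), a log2 ratio of -3.32 (-3.86 to -2.83). One cell held 34.3% of the 4-week UMIs and 1 cell 51.1% of the 2-week UMIs, and without these the ratio was -2.91. Igfbp3 was seen in 10.0 and 27.7% of thinned cells of the cluster, from 50 and 65 cells. Fibroblast-like cells had 16.2 CPM (15.0 to 17.5) and 13.4 CPM (12.0 to 14.9), with the highest level in cluster 7 (41.1 and 54.7 CPM). The class ratio of 0.28 turned negative in 4 of 12 alternatives. In cluster 0 the gene was lower at 4 weeks, at 4.56 and 10.1 CPM (-1.15, -1.73 to -0.55). Cluster 16 had 2 UMIs at 4 weeks and 114 at 2 weeks, of which 1 cell held 51.8%, for a log2 ratio of -5.37 (-8.44 to -3.49) that passed the UMI minimum through the 2-week library alone.

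Igfbp2, one of the binding proteins of serum, was found in very few cells, of cluster 16 and the smooth muscle cell-like class. Cluster 16 had 120 CPM at 4 weeks (176 UMIs) and 19.4 CPM at 2 weeks (39 UMIs), a log2 ratio of 2.63 (2.13 to 3.17). A single cell held 50% of the 4-week UMIs and another 61.5% of the 2-week UMIs, and 8.93 and 3.10% of unthinned cells had any. Smooth muscle cell-like cells had 34.9 CPM (24.0 to 49.0) and 23.3 CPM (18.2 to 29.2). Fibroblast-like cells had 3 and 2 UMIs and macrophage-like cells 0 and 2. Cluster 22 had none in either library, with intervals that reach 8.46 CPM at 4 weeks and 4.68 CPM at 2 weeks.

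**Figure D4:**
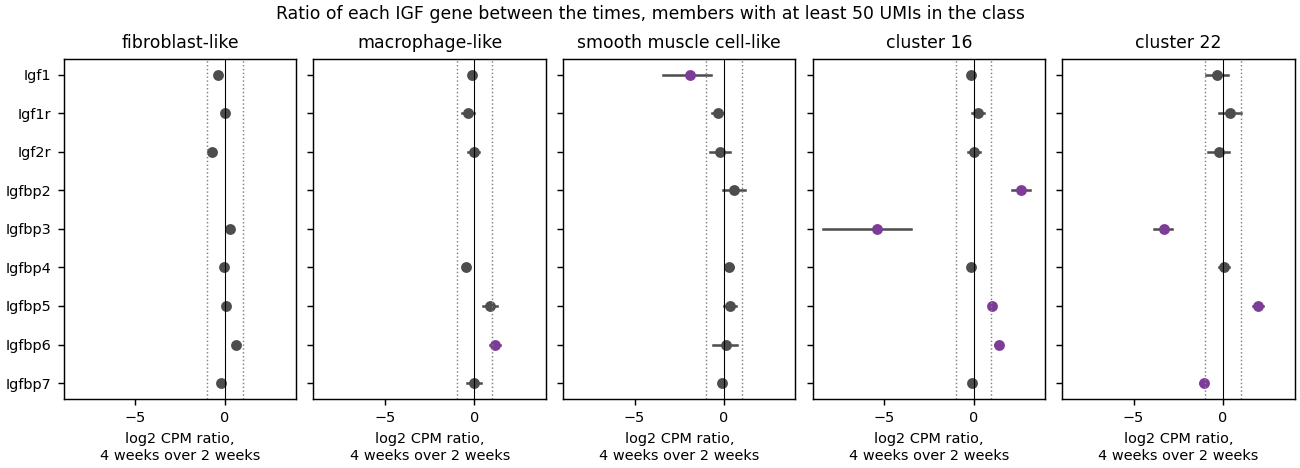
CPM at 4 weeks divided by CPM at 2 weeks, on a log2 scale, for each gene with at least 50 UMIs in the class over both libraries, in 5 stromal and myeloid classes; lines are exact conditional binomial 95% intervals (counting error only), dotted lines mark 2-fold, and purple points lie past it. No point is past 2-fold in fibroblast-like cells, 1 is in macrophage-like cells, 1 in smooth muscle cell-like cells, 4 in cluster 16 and 3 in cluster 22.

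Counted together, 0 or 1 of the IGF genes differed by 2-fold or more between the libraries in each of the named stromal and myeloid classes. So few genes were counted that their share cannot be told from that of all genes. In fibroblast-like cells 8 of the 9 genes had at least 50 UMIs over both libraries and 0 passed 2-fold, beside 5.29% of all 12524 genes with that many UMIs. The median log2 ratio was -0.01 over the 8 genes and 0.02 over all genes. In macrophage-like cells 1 of 7 passed, Igfbp6, beside 5.16% of 10166 genes, with medians of -0.03 and 0.01. In smooth muscle cell-like cells 1 of 8 passed, Igf1, beside 2.25% of 7527 genes, with medians of -0.02 and 0.05, and in dendritic cell-like cells 0 of 3, beside 7.82%.

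The minimum is a sum over both libraries, so a gene that is low in one can pass it through the other, as Igf1 did in smooth muscle cell-like cells (6 and 75 UMIs). The unnamed clusters 13, 16 and 22 differed among themselves. In cluster 16, 4 of 9 passed, with Igfbp2, Igfbp5 and Igfbp6 higher and Igfbp3 lower, beside 3.25% of 7262 genes (medians 0.04 and -0.01). Of these, Igfbp5 and Igfbp6 had at least 50 UMIs in each library, while Igfbp2 (176 and 39 UMIs) and Igfbp3 (2 and 114 UMIs) did not. Cluster 16 met both fibroblast and pericyte markers, and the part of its makeup in these ratios was not tested. In cluster 22, 3 of 7 passed, with Igfbp5 higher and Igfbp3 and Igfbp7 lower, beside 7.68% of 4101 genes (medians -0.25 and -0.03), and Igfbp3 had 35 UMIs at 4 weeks. In cluster 13, with 41 cells at 2 weeks, 0 of 5 passed, beside 9.72% of 2285 genes. Among lymphoid classes the counts were 2 of 4 in NK cell-like cells (Igfbp4 and Igfbp6 higher, beside 7.73%), 1 of 2 in IL-17 type T cell-like cells (Igfbp7 lower, beside 5.48%), 1 of 7 in thymocyte-like cells (Igfbp6 higher, beside 2.28%) and 0 of 6 in T cell-like cells (beside 16.6%). In IL-17 type T cell-like cells 1 cell held 28 of the 60 Igfbp7 UMIs at 2 weeks. Without the highest cell of each library that log2 ratio was -0.36 (-1.13 to 0.40), under 2-fold. The class with the highest CPM, among the 8 named classes of 50 or more cells per library, was the same in both libraries for all 9 genes. It was fibroblast-like for Igf1, Igf2r, Igfbp3, Igfbp4, Igfbp5 and Igfbp6, smooth muscle cell-like for Igfbp2 and Igfbp7, and IL-17 type T cell-like for Igf1r. Clusters 16 and 22, being unnamed, were outside this ranking. With them counted in, Igfbp3 was highest in cluster 22 at both times (80.3 and 802 CPM). At 4 weeks Igfbp2 (120 CPM) and Igf2r (86.1 CPM) were then highest in cluster 16, and its Igf2r interval overlapped that of cluster 22.

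**Figure D5:**
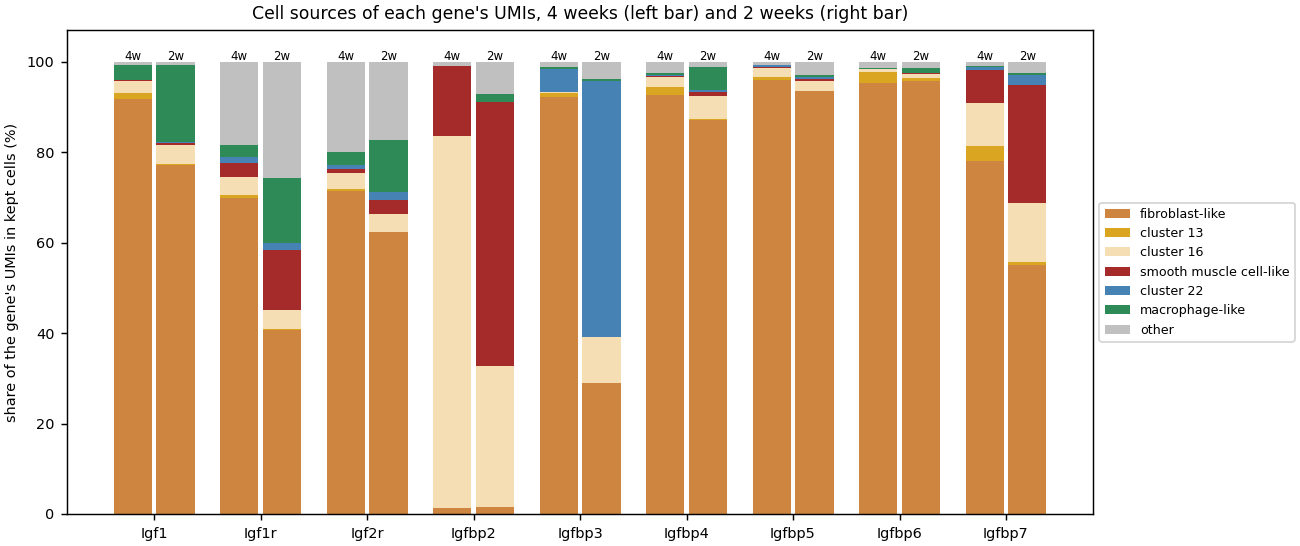
Share (%) of each gene's UMIs in kept cells held by fibroblast-like, macrophage-like and smooth muscle cell-like cells, clusters 13, 16 and 22 and all other cells, with 4 weeks as the left bar and 2 weeks as the right bar of each pair. Macrophage-like cells held 3.25 and 17.0% of Igf1 UMIs, and fibroblast-like cells held over 90% of Igfbp5 and Igfbp6 UMIs at both times.

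Several binding protein genes were seen together in single stromal cells. At 2700 UMIs per cell, 3 or more of the 6 binding proteins were seen in 91.5% (4 weeks) and 86.0% (2 weeks) of fibroblast-like cells, and in 58.6 and 50.8% of cluster 16. Macrophage-like cells had none of them in 57.5 and 52.0% of cells, and thymocyte-like cells in 70.3 and 78.2%. All thinned fibroblast-like cells (2852 and 1004) had a binding protein UMI, and 1736 and 639 of them also had an Igf1 UMI. Of macrophage-like cells with an Igf1 UMI, 57.1% (52 of 91) and 65.4% (286 of 437) had one.

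Other genes of the pathway were read from a list of 41. In fibroblast-like cells 33 had at least 50 UMIs, 0 were higher and 2 lower by 2-fold or more at 4 weeks, beside the 5.29% of all genes. Igf2, the second IGF ligand, had 6.65 CPM at 4 weeks and 49.5 CPM at 2 weeks (-2.90, -3.10 to -2.70), and Cish, a cytokine-induced inhibitor of STAT5 signalling, had 4.82 and 16.6 CPM (-1.78). Neither is given by cluster here, and cluster 6 held 4.24% of the class at 4 weeks and 55.2% at 2 weeks. The part of this makeup in the Igf2 and Cish ratios was not tested. None of the 16 receptor adaptors and signalling genes, and none of the 5 proteases and inhibitors with enough UMIs, passed 2-fold in fibroblast-like cells. The median log2 ratio of the 33 was -0.02. In macrophage-like cells 24 had enough UMIs and 1 was lower (5.16% of all genes), the adaptor Gab1, with 15.7 and 45.7 CPM (-1.54). In smooth muscle cell-like cells 1 of 25 was lower (2.25%), the insulin receptor substrate Irs2, with 25.4 and 69.5 CPM (-1.45). In cluster 16, 1 of 28 was lower (3.25%), Pappa2, a protease that cuts IGF binding proteins, with 2.05 and 38.8 CPM (-4.24, -6.55 to -2.64), from 3 and 78 UMIs, so that it passed the minimum through the 2-week library. In these 4 classes the counts were of 1 or 2 genes, near the share of all genes. In cluster 22, 3 of 15 were lower (7.68%): Insr, the insulin receptor (82.6 and 222 CPM), Jak2, a kinase of the growth hormone receptor (36.7 and 86.3 CPM), and Socs2, an inhibitor of that receptor (216 and 470 CPM). The part of the differing makeup of cluster 22 in these ratios was not tested.

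The genes whose levels ran most like each of 8 members were found over 43 pools, each 1 cluster in 1 library with at least 50 cells, by Pearson correlation of log2(CPM + 10). The pools share libraries and cells of related types, so these values are descriptions. Igf1 ran most like Cfb (0.95), Cd302 (0.92) and Rnase4 (0.92). Igfbp6 ran like Clec3b (0.97), Pi16 (0.97) and Dpt (0.96), which also mark fibroblasts, and Igfbp4 like C1ra (0.94), Serping1 and Mmp2 (0.93 each). Igfbp5 ran like Adamts5 (0.95), Ackr3 and Arhgap42 (0.94 each), Igfbp7 like Bgn and Hspg2 (0.97 each), and Igfbp3 like Ldb2 (0.92), Fgd5 (0.89) and Meox1 (0.89). The receptors had weaker partners, with Map1lc3b (0.73), Qsox1 (0.73) and Bcorl1 (0.72) for Igf1r, and Map1lc3b (0.75), Snai1 (0.74) and Sntb2 (0.73) for Igf2r. Among the members themselves, Igf1 ran most like Igfbp4 (0.89) and least like Igfbp2 (0.13).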

How the data were processed

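Single-cell RNA of carotid artery cells was read in droplets, as 1 library per time. The authors deposited raw UMI counts for each gene in each barcode. Cell Ranger 4.0.0 made them, per the file headers, on the mm10 genome, per the submitters' processing notes. The whole-library totals were 83753250 UMIs at 4 weeks and 78773018 at 2 weeks, which sets the precision of each level.

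Barcodes under 300 genes or 500 UMIs, or over 10% mitochondrial UMIs, were dropped, which removed 73 and 54 barcodes as shallow and 483 and 383 for mitochondrial UMIs. The highest Scrublet scores were then removed as doublets at 0.8% per 1000 barcodes (549 and 255 cells, 6.85 and 4.70%; 261 and 73 under Scrublet's default cutoff). The libraries were clustered jointly, with no batch correction, on logged counts per 10000, from 2000 variable genes, 30 principal components and 15 neighbours by Leiden at resolution 1 (seed 1). A cluster took a class name where at least 3 markers and 50% of a list were in at least 10% of cells and at least 2-fold above the mean of the other clusters, with a lead of 20 percentage points. Thymocytes, which share T cell markers, needed no such lead. Cluster 13 met the fibroblast list but stayed unnamed for its low UMIs.

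UMIs were summed per library and class, as CPM with exact Poisson intervals; log2 ratios have exact conditional binomial intervals and shares Clopper-Pearson intervals. A gene counted as differing had at least 50 UMIs in the class and an absolute log2 ratio of 1 or more. The ratio step was tested on simulated data. For shares of cells, each cell was thinned to 2700 UMIs, and 696 and 541 shallower cells were left out. Named genes are the 9 members, the pathway genes past 2-fold in the class described, and the 3 genes most like each member with at least 500 UMIs, of which 1 is not reported here. The members, lists and markers were chosen with earlier results of these data known. Alternatives were other cell filters, clusterings, weights and thresholds. Gene positions come from GENCODE M21. Software was scanpy 1.11.5, leidenalg 0.10.2, scikit-learn 1.9.0 and scipy 1.17.1 under Python 3.11.15.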

Additional observations from a re-analysis of the deposited data

Results flagged for a closer look

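Igfbp3 had opposite directions in different classes, beyond counting error in each. Its log2 ratio of 4 weeks over 2 weeks was -5.37 in cluster 16 (2 and 114 UMIs) and -3.32 in cluster 22 (35 and 632 UMIs), but 0.28 in fibroblast-like cells (622 and 323 UMIs). In each of the clusters 1 cell held over 50% of the 2-week UMIs. The direction in fibroblast-like cells depended on the processing.

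Igfbp4 was higher at 4 weeks in NK cell-like cells, with a log2 ratio of 1.09 (101 and 26 UMIs), and lower in macrophage-like cells, with -0.47 (556 and 3567 UMIs). In NK cell-like cells the gene had 90.7 and 49.1 UMIs per 1000 UMIs of the fibroblast list, beside 81.9 and 65.1 in thymocyte-like cells. With 1 library per time, none of these differences between classes was tested.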

How the results depend on the processing

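No paired analysis was possible because each time has 1 library and no test was made; for the same reason no replicate could be left out. The count of IGF genes past 2-fold in fibroblast-like cells, 0 as reported, became 1 without doublet removal, 1 with clusters 13 and 16 counted in (an alternative chosen after seeing the data) and 2 at a 1.5-fold threshold. In macrophage-like cells, 1 as reported, it became 0 with each library clustered on its own, 0 without the highest cell of each gene and 2 at 1.5-fold. The first of these covers a smaller macrophage-like class, without the unnamed clusters led by Arg1 and by Mmp12. Over all genes, the 663 of fibroblast-like cells became 303 with thinned cells, 2128 with no minimum of UMIs and 1650 at 1.5-fold, and the 525 of macrophage-like cells became 1971 and 1612 under the last 2. The number of IGF genes with the same highest class in both libraries was 8 or 9 in all 10 alternatives that could change it. The class itself could change. With each library clustered on its own, Igf1r and Igfbp7 were highest in fibroblast-like cells at both times. Igfbp2 was then highest in T cell-like cells at 4 weeks and in NK cell-like cells at 2 weeks. In that setting no 4-week cluster took the smooth muscle cell or IL-17 type T cell name. In the joint clustering, T cell-like cells had only 1 and 0 Igfbp2 UMIs and NK cell-like cells 0 and 1. That ranking of Igfbp2 is therefore no sign of a lymphocyte source.

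Signs that turned were mostly of small ratios. With every cluster weighing the same, the log2 ratio was 0.020 for Igf1, -0.29 for Igfbp3 and -0.69 for Igfbp5 in fibroblast-like cells, and 0.24 for Igf1 and 0.015 for Igfbp4 in macrophage-like cells. Thinned cells gave -0.27 for Igfbp3 and -0.18 for Igfbp5 in fibroblast-like cells, -0.11 for Igfbp5 in smooth muscle cell-like cells and 0.15 for Igfbp4 in cluster 16. With every cell weighing the same, Igfbp5 in fibroblast-like cells was at -0.14 and Igfbp4 in cluster 16 at 0.033. With each library clustered on its own, Igfbp3 in fibroblast-like cells was at -0.16 and Igfbp4 in macrophage-like cells at 0.10. That macrophage-like class lacked the unnamed clusters led by Arg1 and by Mmp12. Igfbp3 in fibroblast-like cells was at -0.10 with clusters 13 and 16 counted in, and Igf1 in macrophage-like cells at 0.15 at Leiden resolution 2. The cause was not tested, beyond what weighting clusters or cells equally shows by construction. Igfbp6 in fibroblast-like cells stayed between 0.62 and 0.70 in its 12 alternatives, and Igf2r between -0.73 and -0.31. At this depth Igfbp2 could not be compared in fibroblast-like cells (3 and 2 UMIs) or macrophage-like cells (0 and 2).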

Other observations

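Cluster 13 (245 cells at 4 weeks and 41 at 2 weeks), with C7, Ccl19 and Inmt among its top genes, had medians of 3103 and 2055 UMIs per cell. Its levels were 313 CPM of Igf1 at 4 weeks (277 to 352) and 342 CPM at 2 weeks (247 to 462), 1987 and 1800 CPM of Igfbp4, and 2311 and 1580 CPM of Igfbp6. Igfbp6 was again higher at 4 weeks, with intervals that did not overlap (2213 to 2413 and 1365 to 1819).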
